A study of Mus musculus with 6 samples.

Results

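The genes described here encode cell-surface proteins by which fibroadipogenic progenitors (FAPs) and mesenchymal stromal cells are recognised and sorted. The set was a named list: *Ly6a* (Sca-1), *Ly6c1*, *Ly6e*, *Cd34*, *Thy1* (CD90), *Eng* (CD105), *Nt5e* (CD73), *Cd9*, *Cd248* (endosialin) and *Vcam1* (CD106). It holds 10 of the 33276 genes in the count table, and all 10 had enough reads to be tested. Bulk RNA sequencing was done on 3 libraries of circulating FAPs, taken from peripheral blood, and 3 libraries of muscle FAPs, all from mice labelled MCAO, the usual abbreviation for middle cerebral artery occlusion, an experimental stroke. All 6 libraries share that label, and no unoperated group was analysed here. The labels give no mouse strain, age or sex, no time after occlusion, no muscle and none of the antigens used to isolate the cells. The comparison asks how far FAPs from blood carry the surface marker transcripts of FAPs from muscle.

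FAPs are resident mesenchymal cells of skeletal muscle that lie between the fibres, support regeneration and can form fibroblasts and adipocytes. They are usually isolated as cells that lack endothelial and leukocyte antigens and carry Sca-1, often together with CD34 or PDGFRα. Sca-1, Ly6C and Ly6E are small lipid-anchored proteins of the Ly6 family, and CD90 and CD73 are held in the membrane by the same glycosylphosphatidylinositol (GPI) anchor, whereas CD34, endoglin, CD9, endosialin and VCAM-1 span the membrane. Several are shared with other cells: Sca-1 and CD34 with endothelium and blood progenitors, Ly6C with monocytes and endothelium, CD9 with platelets, and VCAM-1 with activated endothelium and satellite cells.

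The Ly6 transcripts are close copies of one another, so their sequences are shown before their values. The lines below give the first 60 coding bases, counted from the A of the start codon, of 5 Ly6 genes in the GENCODE M21 annotation of GRCm38; capitals mark bases that differ from *Ly6a* at the same position.
Ly6a: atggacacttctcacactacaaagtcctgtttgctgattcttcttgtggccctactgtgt
Ly6c1: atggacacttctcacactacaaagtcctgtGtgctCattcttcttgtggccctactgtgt
Ly6c2: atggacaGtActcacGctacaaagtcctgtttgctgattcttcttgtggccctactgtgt
Ly6i: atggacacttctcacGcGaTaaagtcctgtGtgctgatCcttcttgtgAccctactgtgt
Ly6e: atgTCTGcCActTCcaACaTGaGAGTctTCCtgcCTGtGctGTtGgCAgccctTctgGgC
Over this stretch *Ly6c1* differed from *Ly6a* at 2 bases, *Ly6c2* at 3, *Ly6i* at 6 and *Ly6e* at 31. Over whole coding sequences *Ly6a* was 82.0% identical to *Ly6c1*, 86.4% to *Ly6i* and 54.4% to *Ly6e*, and *Ly6c1* was 97.7% identical to *Ly6c2* (387 of 396 bases). Of the 50-base windows of *Ly6a* exons, 15.0% (195 of 1297) occurred unchanged in *Ly6c1*, and 21.5% of those of *Ly6c1* (379 of 1764) occurred in *Ly6c2*. No window of *Ly6e* occurred in the other Ly6 genes compared. How reads that match several genes were counted is not given in the sources used here, so the split of reads between *Ly6a*, *Ly6c1*, *Ly6c2* and *Ly6i* is uncertain.

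Totals ran from 5522193 to 23424039 counts per library, lowest in circulating library 2. The 18S ribosomal RNA gene took 42.9%, 43.8% and 60.1% of the counts in circulating libraries 1, 2 and 3 and 32.3%, 27.8% and 32.3% in muscle libraries 1, 2 and 3. Levels are given as CPM (counts scaled to a library of 1000000) scaled by the trimmed mean of M values (TMM), as a mean ± SD over n = 3 libraries per group, and differences as log2 fold changes of circulating minus muscle FAPs from edgeR's quasi-likelihood F test with Benjamini-Hochberg adjustment over all 20248 genes tested. Whether the 3 libraries of a group stem from different mice is not in the labels. The p-values therefore reflect only how these libraries vary, which may be technical. In bulk libraries, fewer cells carrying a transcript and less of it per cell cannot be told apart.

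None of the 10 surface marker genes passed an adjusted p of 0.05 in edgeR. One of them, *Cd9*, had an unadjusted p under 0.05 in that fit, with a lower level in circulating FAPs. DESeq2 and limma-voom also called 0 of the 10. Over all genes tested, edgeR called 0.109%, limma-voom 0.454% and DESeq2 6.33%, and 9.64% had an unadjusted p under 0.05 in edgeR with a lower level in circulating FAPs and 9.71% with a higher one, so counts of 0 and 1 among 10 genes are near these shares. The 95% confidence intervals of the 10 log2 fold changes reached between 0.62 and 1.60 to each side of the estimate. Their outermost ends were -2.83 for *Vcam1* and 1.62 for *Nt5e*, so each gene had room for changes anywhere within its own interval. The lowest library of either group still held 535 CPM of *Ly6a*, 784 CPM of *Cd34* and 446 CPM of *Cd248*.

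**Figure D1:**
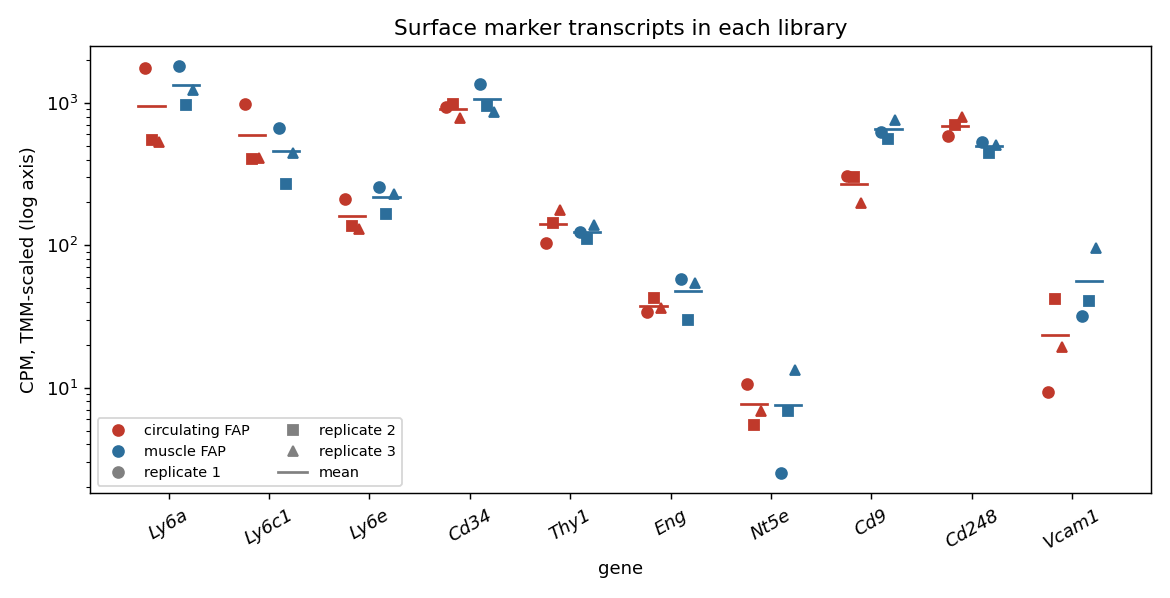
Level of each surface marker gene in each library, in TMM-scaled CPM on a log axis. Points are libraries, with shape giving the replicate number, and bars are group means of 3 libraries. The groups do not overlap for *Cd9*, lower in circulating FAPs, or *Cd248*, higher in circulating FAPs; circulating library 1 stands above the other circulating libraries for the 3 Ly6 genes.

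The groups did not overlap for 2 of the 10 genes, *Cd9* with all 3 circulating libraries below the muscle libraries and *Cd248* with all 3 above. Among all genes tested, 11.4% were separated in the lower direction and 16.2% in the higher. Among the 4736 genes of a mean of at least 20 CPM, where 9 of the 10 markers lie, the shares were 28.8% lower and 1.67% higher. These well-expressed genes had a median log2 fold change of -0.65, against 0.15 for all genes tested. The markers' median was -0.28, with 6 negative and 4 positive values. Of the 9 abundant markers, 7 lay above the -0.65 median and 2, *Cd9* and *Vcam1*, below it.

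**Figure D2:**
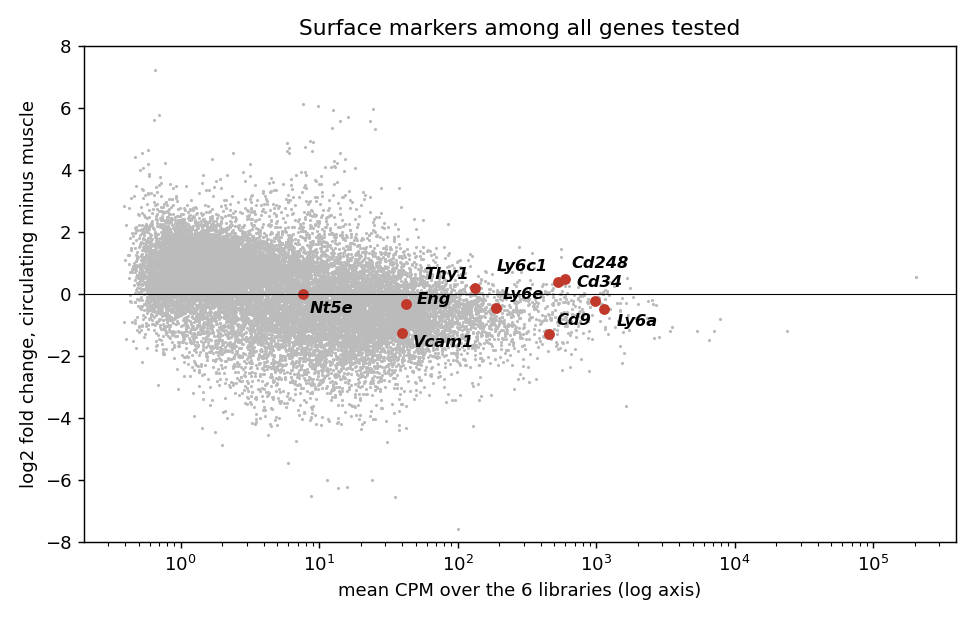
Log2 fold change of circulating minus muscle FAPs against mean CPM over the 6 libraries (log axis) for all genes tested in grey, with the 10 surface markers in red. Well-expressed genes centre on -0.65; 7 of the 9 markers above 20 CPM sit higher than that.

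The sign of small differences depended on how libraries were scaled. Scaling on the well-expressed genes alone moved the median of all genes tested from 0.15 to 0.85 and that of the markers from -0.28 to 0.47. Under it *Ly6a*, *Ly6e*, *Cd34* and *Eng* turned from negative to positive, with log2 fold changes of 0.16, 0.27, 0.49 and 0.44. *Ly6c1*, *Cd34*, *Thy1* and *Cd248* then had all circulating libraries above the muscle libraries, a separation that 30.9% of all genes tested showed under this scaling, and *Cd9* kept all of them below, as did 4.25%. The log2 fold change of *Cd9* was then -0.56 (adjusted p = 0.222) and that of *Cd248* 1.22 (adjusted p = 0.0882), in the same edgeR test.

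**Figure D3:**
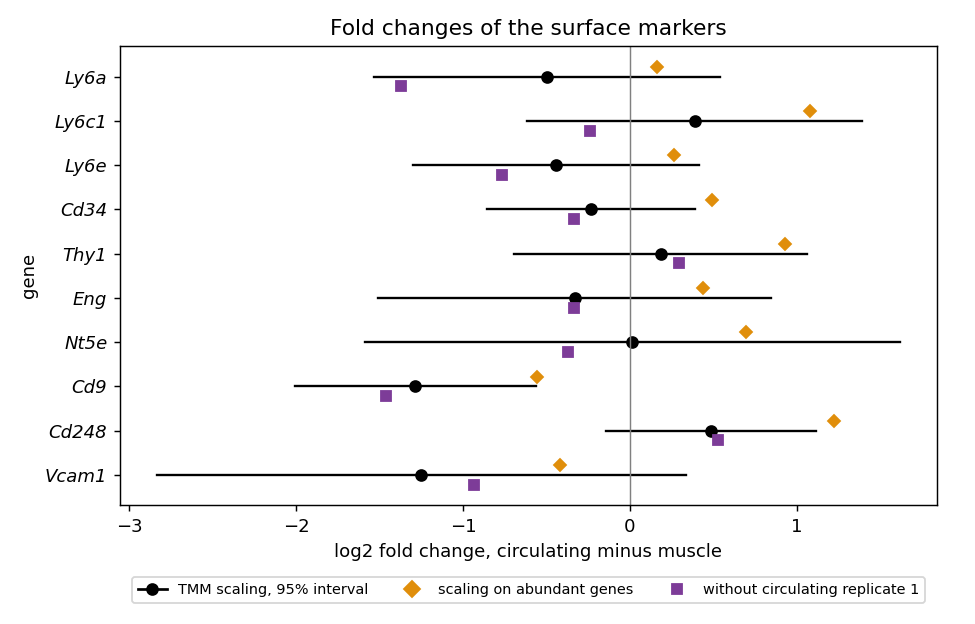
Log2 fold change of each surface marker, circulating minus muscle FAPs, with its 95% confidence interval (black), the value when libraries are scaled on well-expressed genes (orange) and the value without circulating library 1 (purple). *Cd9* stays negative and *Cd248* positive in all 3 displays, while *Ly6a*, *Ly6c1*, *Ly6e*, *Cd34*, *Eng* and *Nt5e* lie on both sides of 0.

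*Ly6a* encodes Sca-1, the antigen most used to sort mouse FAPs. Its level was 1759.6, 548 and 535 CPM in circulating libraries 1, 2 and 3 and 1808, 973 and 1223 CPM in muscle libraries 1, 2 and 3. Circulating library 1 reached the muscle range, whereas the other 2 circulating libraries lay below every muscle library. The means were 948 ± 703 and 1335 ± 429 CPM (SD, n = 3 each), and the log2 fold change was -0.49 ± 0.47 (SE; 95% interval -1.53 to 0.54; adjusted p = 0.553). Circulating library 1 held 3.25 times the mean of the other circulating libraries. Without it the log2 fold change was -1.37 (adjusted p = 0.110), and without each of the other libraries in turn it stayed between that and -0.26.

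*Ly6c1* encodes one of the near-identical Ly6C proteins of monocytes and endothelium. It stood at 985, 402 and 410.0 CPM in circulating libraries and at 664, 269 and 441 CPM in muscle libraries. The groups overlapped, and library 1 was again the highest of the circulating group. Mean levels were 599 ± 334 and 458 ± 198 CPM, with a log2 fold change of 0.39 ± 0.45 (95% interval -0.62 to 1.39; adjusted p = 0.633). That library held 2.43 times the mean of the other circulating libraries, and without it the log2 fold change was -0.24. The twin gene *Ly6c2*, the form typical of monocytes, had only 34, 16 and 20 reads in circulating libraries and 15, 21 and 31 in muscle libraries. Scaled for depth, these were 2.48, 2.13 and 2.20 CPM in circulating and 0.896, 1.07 and 1.52 CPM in muscle libraries. Every circulating library thus lay above the muscle libraries, as for 16.2% of all genes tested (log2 fold change 0.96 ± 0.50; edgeR adjusted p = 0.308).

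*Ly6e* encodes a widely expressed, interferon-inducible family member. Its levels were 213, 138 and 130.2 CPM in circulating libraries and 255, 166 and 231 CPM in muscle libraries. Circulating library 1 was the only circulating library inside the muscle range, at 1.59 times the mean of the other circulating libraries. The log2 fold change was -0.44 ± 0.39 (95% interval -1.30 to 0.42; adjusted p = 0.521). Within the circulating group all 3 Ly6 genes were thus highest in library 1. Within the muscle group they were highest in library 1 and lowest in library 2.

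*Ly6a* and *Ly6e* are known interferon-inducible genes, so a list of 20 interferon-induced genes was set beside them. Its summed level was 3073, 1028 and 1430 CPM in circulating libraries and 2162, 1738 and 2104 CPM in muscle libraries, with the highest sum in circulating library 1. edgeR called 0 of the 20, with 2 lower and 2 higher at an unadjusted p under 0.05. These counts were near the shares of all genes tested, 9.64% lower and 9.71% higher. DESeq2 called 2 lower, *Ifit1* and *Ifit3*, beside 5.32% of all genes tested that it called lower. The most abundant gene of the list, *Ifi27l2a*, stood at 1469, 289 and 591 CPM in circulating libraries and 386, 297 and 335 CPM in muscle libraries. It thus held 1469 of the 3073 CPM in circulating library 1, where *Ifit2* was also highest. *Ifitm3* and *Irf1* were instead highest in muscle, at 813 CPM in muscle library 1 and 425 CPM in muscle library 3. The part of this list's level in the Ly6 values was not tested.

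The other Ly6 and uPAR family genes were mostly low: 13 of 26 had enough reads to be tested. edgeR called none of them in either direction, and DESeq2 called 2 lower, *Ly6i* and *Gpihbp1*, against 5.32% of all genes tested. *Ly6i* had 0.949, 3.19 and 0.439 CPM in circulating libraries and 46.8, 21.8 and 13.4 CPM in muscle libraries. All circulating libraries lay below the muscle libraries, with a log2 fold change of -4.18 ± 0.95 (edgeR adjusted p = 0.125; DESeq2 adjusted p = 3.69e-05). *Ly6i* shares 31 of its 50-base windows with *Ly6a*, so how far reads were split between them is uncertain here too. The most abundant of the tested family genes were *Plaur*, the urokinase receptor, at 9.84 ± 4.91 and 25.1 ± 10.4 CPM, *Ly6i*, and *Lynx1*, at 12.7 ± 6.07 and 24.9 ± 5.40 CPM in circulating and muscle FAPs.

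*Cd34* encodes a sialomucin of blood progenitors, endothelium and many stromal progenitors. It stood at 940.2, 979.6 and 784 CPM in circulating libraries and at 1366, 949 and 865 CPM in muscle libraries. The groups overlapped, and the circulating libraries were close to one another. Mean levels were 901 ± 103 and 1060.2 ± 268 CPM, with a log2 fold change of -0.23 ± 0.28 (95% interval -0.86 to 0.39; adjusted p = 0.644). This was one of the narrowest intervals among the 10 genes. Of the CD34 family and its selectin partners, 5 genes, edgeR called 0 and DESeq2 called 1 higher, against 1.01% of all genes tested called higher. That gene was *Podxl*, the podocalyxin relative of CD34, at 15.98, 3.99 and 13.2 CPM in circulating and 0.119, 2.28 and 1.61 CPM in muscle libraries (log2 fold change 3.03 ± 0.97; edgeR adjusted p = 0.178; DESeq2 adjusted p = 0.0206).

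*Thy1* encodes CD90, a GPI-anchored protein of stromal cells, T cells and neurons. It was measured at 104, 144 and 176 CPM in circulating libraries and 125, 110.5 and 138 CPM in muscle libraries. The muscle libraries lay within the range of the circulating ones. The log2 fold change was 0.18 ± 0.40 (95% interval -0.69 to 1.06; adjusted p = 0.803), and without circulating library 3 it was -0.11.

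*Cd248* encodes endosialin, a C-type lectin receptor of pericytes and fibroblasts that binds matrix proteins. Its levels were 584, 698 and 794 CPM in circulating libraries and 528, 446 and 509 CPM in muscle libraries. Every circulating library exceeded every muscle library, though circulating library 1 did so by a small margin. Mean levels were 692 ± 105 and 494 ± 42.8 CPM, and the log2 fold change of 0.49 ± 0.29 did not pass the test (95% interval -0.15 to 1.12; adjusted p = 0.355; DESeq2 adjusted p = 0.650). Of the genes above 20 CPM, 9.90% had a higher log2 fold change. In the lectin family of *Cd248*, edgeR called 0 of 4 genes and DESeq2 1 lower, *Clec14a*, against 5.32% of all genes tested. The most abundant of them, *Thbd* (thrombomodulin), averaged 153 ± 52.8 CPM in blood-derived and 225 ± 51.9 CPM in muscle FAPs.

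*Eng* encodes endoglin, a co-receptor for TGF-β and BMP ligands on endothelial and stromal cells. It stood at 34.1, 42.9 and 36.1 CPM in circulating libraries and 57.6, 29.9 and 54.8 CPM in muscle libraries. Muscle library 2 was below all circulating libraries and the other 2 above them. The log2 fold change was -0.33 ± 0.53 (95% interval -1.51 to 0.85; adjusted p = 0.735). Among 19 genes of the endoglin receptor complex and its targets, edgeR called 0 and DESeq2 4 lower, *Acvrl1*, *Tgfbr1*, *Acvr2a* and *Tgfb2*. DESeq2 called 5.32% of all genes tested lower. *Acvrl1*, the type I receptor that endoglin is best known to assist, had 15.3, 22.2 and 16.1 CPM in circulating and 82.6, 63.1 and 44.9 CPM in muscle libraries, with no overlap (log2 fold change -1.83 ± 0.55; edgeR adjusted p = 0.171). The list's median log2 fold change was -0.28.

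*Nt5e* encodes CD73, which makes adenosine from AMP outside the cell. It was the lowest of the 10 genes, at 10.7, 5.46 and 6.81 CPM in circulating libraries and 2.51, 6.80 and 13.4 CPM in muscle libraries. The spread within muscle covered the circulating range. The log2 fold change was 0.01 ± 0.72 (95% interval -1.59 to 1.62; adjusted p = 0.993). A floor was taken from 384 chemosensory receptor genes (trace amine, taste and vomeronasal) with a known exon length, which these cells are not known to use. Their median was 0.424 to 0.528 CPM per kb in circulating and 0.216 to 0.284 in muscle libraries. *Nt5e* per kb was 2.61, 1.20 and 1.86 times this floor in circulating libraries and 1.10, 2.78 and 7.21 times it in muscle libraries. In circulating library 2 and muscle library 1 it was therefore near the floor.

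Neither edgeR nor DESeq2 called any of the 12 tested genes of the adenosine pathway around CD73, whose median log2 fold change was -0.99. The pathway's most abundant genes were *Entpd2*, an ectonucleotidase that acts before CD73, at 113 ± 28.3 and 231 ± 31.1 CPM, and *Slc29a1*, a nucleoside transporter, at 57.7 ± 18.6 and 137 ± 30.6 CPM in blood and muscle cells, followed by *Adk*, adenosine kinase, at 29.96 ± 27.0 and 44.9 ± 33.0 CPM. Unadjusted edgeR p-values, from the fit across all genes, were 0.0209 for *Entpd2* and 0.0214 for *Slc29a1*.

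*Vcam1* encodes the adhesion receptor for α4β1 integrin. It had 9.27, 42.1 and 19.2 CPM in circulating libraries and 31.8, 40.6 and 94.9999 CPM in muscle libraries. The circulating libraries differed among themselves by 4.54 times, and circulating library 2 lay above the lower 2 muscle libraries. Mean levels were 23.5 ± 16.8 and 55.8 ± 34.2 CPM, with a log2 fold change of -1.25 ± 0.71 (95% interval -2.83 to 0.33; adjusted p = 0.345). The value ran from -2.05 without circulating library 2 to -0.69 without muscle library 3. Per kb it was 2.21, 8.99 and 5.10 times the receptor gene floor in circulating libraries and 13.5, 16.1 and 49.6 times it in muscle libraries.

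Of 14 adhesion partners of VCAM-1 and CD90, edgeR called 0, whereas DESeq2 called 4 lower (*Itgav*, *Ezr*, *Rdx* and *Adgre5*) and 1 higher (*Itgb2*, the leukocyte β2 integrin chain). Of all genes tested DESeq2 called 5.32% lower and 1.01% higher. *Itgb1*, the β1 chain of the VCAM-1 receptor, stood at 142 ± 44.6 and 164 ± 43.0 CPM. *Itgav*, a chain of the αvβ3 integrin that CD90 binds, had 52.8, 24.5 and 56.1 CPM in circulating and 220.4, 176 and 109 CPM in muscle libraries, with no overlap (log2 fold change -1.92 ± 0.50; edgeR adjusted p = 0.147; DESeq2 adjusted p = 0.0169). *Msn*, the membrane to actin linker moesin, stood at 91.6 ± 21.6 and 180.3 ± 42.8 CPM.

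*Cd9* encodes a tetraspanin that organises membrane partners and is abundant on exosomes and platelets. It stood at 306, 299 and 197 CPM in circulating libraries and 628, 561 and 764 CPM in muscle libraries. All 3 circulating libraries were below the lowest muscle library. The margin was small with scaling on well-expressed genes, at 437 CPM in circulating library 2 and 458 CPM in muscle library 1. With TMM scaling, mean levels were 267 ± 61.3 and 651 ± 104 CPM, and the log2 fold change was -1.28 ± 0.33 (95% interval -2.00 to -0.56). The difference did not pass the adjusted threshold (edgeR adjusted p = 0.143; DESeq2 adjusted p = 0.0704), although its interval, which is not adjusted for the number of genes, lay below 0. Leaving out each library in turn gave -1.47 to -1.21, and 23.1% of the genes above 20 CPM had a lower log2 fold change than *Cd9*.

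The partners of *Cd9* in the tetraspanin web were a list of 15 genes, of which 14 were tested. edgeR and DESeq2 called 0 of them. Groups did not overlap for 4 in the lower direction, *Cd81*, *Cd63*, *Ptgfrn* and *Adam10*, and for 1 in the higher. Among all genes tested 11.4% were separated lower and 16.2% higher. The 4 genes separated lower averaged above 20 CPM, where 28.8% of genes were separated in that direction. That share is not the base of all 14, since some of them, such as *Cd53* and *Cd82*, lay below 20 CPM. *Cd81*, the closest relative of *Cd9*, had 266, 159 and 199.96 CPM in circulating and 502, 421 and 599 CPM in muscle libraries (log2 fold change -1.29 ± 0.34; edgeR adjusted p = 0.148; DESeq2 adjusted p = 0.0718). *Cd63* stood at 308 ± 51.8 and 542 ± 69.5 CPM (log2 fold change -0.82 ± 0.31), and *Ptgfrn*, which binds CD9 and CD81 directly, at 119 ± 35.7 and 259.7 ± 11.9 CPM (log2 fold change -1.13 ± 0.38). The list's median was -0.80, near the -0.65 of well-expressed genes, and moved to -0.09 with scaling on those genes.

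**Figure D4:**
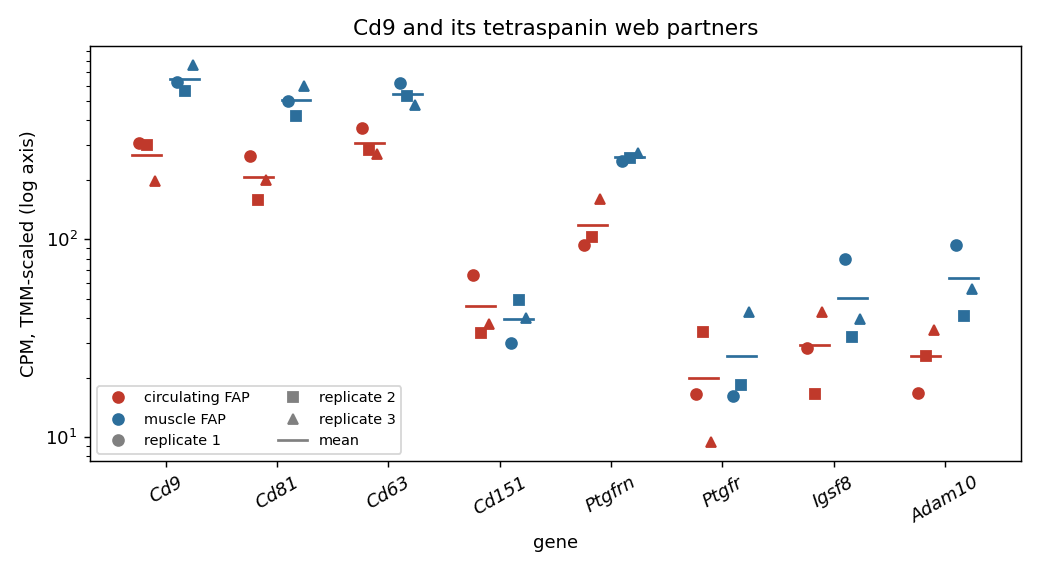
Levels of *Cd9* and of 7 of its tetraspanin web partners in each library, in TMM-scaled CPM on a log axis, with points for libraries and bars for means of 3. *Cd9*, *Cd81*, *Cd63*, *Ptgfrn* and *Adam10* have all circulating libraries below the muscle libraries, while *Cd151*, *Ptgfr* and *Igsf8* overlap.

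A ratio of reads within a library does not depend on the scaling between libraries, so each gene was also set against *Cd34*. For every 100 *Cd34* reads there were 32.6, 30.6 and 25.1 *Cd9* reads in circulating libraries and 46.0, 59.1 and 88.3 in muscle libraries. *Cd248* gave 62.2, 71.3 and 101 reads per 100 *Cd34* reads in circulating and 38.6, 47.0 and 58.8 in muscle libraries. *Ly6a* gave 187, 55.9 and 68.2 in circulating and 132, 103 and 141 in muscle libraries. Relative to *Cd34*, the groups did not overlap for *Cd9* (log2 difference -1.09) or *Cd248* (0.69). Both had the smallest two-sided exact permutation p that 3 against 3 libraries allow, 0.1, which was 0.45 after Benjamini-Hochberg adjustment over 9 ratios.

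The other 7 ratios overlapped between the groups. Their log2 differences were -0.48 for *Ly6a*, 0.56 for *Ly6c1*, -0.24 for *Ly6e*, 0.37 for *Thy1*, -0.07 for *Eng*, 0.48 for *Nt5e* and -1.13 for *Vcam1*, with exact permutation p-values of 0.4 to 1.0. With 3 libraries a group this permutation test could not have reached p = 0.05.

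**Figure D5:**
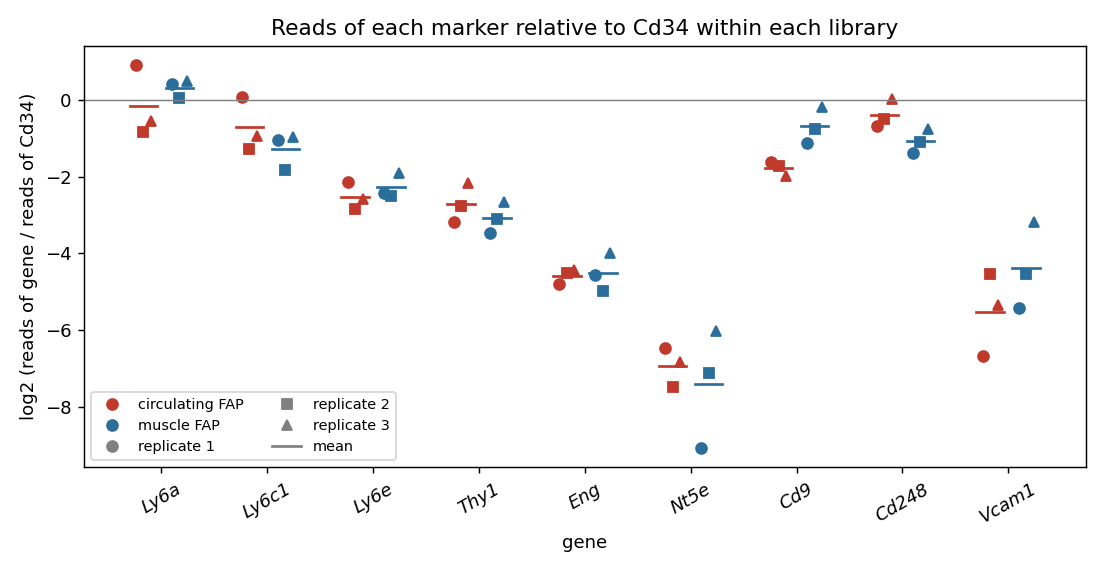
Reads of each surface marker relative to *Cd34* reads in the same library, as a log2 ratio, with points for libraries and bars for group means of 3. *Cd9* is lower and *Cd248* higher in all circulating than in all muscle libraries; the other 7 genes overlap.

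Levels of different genes were compared per kilobase of exon. In circulating FAPs the order was *Ly6a* (786 ± 584 CPM per kb), *Ly6c1* (357 ± 199), *Cd248* (266 ± 40.3), *Cd9* (131 ± 29.99), *Cd34* (124 ± 14.2), *Thy1* (47.2 ± 12.0), *Ly6e* (42.3 ± 12.0), *Eng* (9.31 ± 1.13), *Vcam1* (2.65 ± 1.90) and *Nt5e* (0.888 ± 0.313). Neighbours differed beyond the range of their libraries between *Cd248* and *Cd9*, *Cd34* and *Thy1*, *Ly6e* and *Eng*, and *Eng* and *Vcam1*, while the other neighbours overlapped. In muscle FAPs the order was *Ly6a* (1108 ± 356 CPM per kb), *Cd9* (319 ± 50.7), *Ly6c1* (273 ± 118), *Cd248* (189.7 ± 16.4), *Cd34* (145 ± 36.8), *Ly6e* (57.5 ± 12.1), *Thy1* (41.5 ± 4.58), *Eng* (11.7 ± 3.77), *Vcam1* (6.29 ± 3.86) and *Nt5e* (0.880 ± 0.638). There the neighbours without overlap were *Ly6a* and *Cd9*, *Cd34* and *Ly6e*, *Thy1* and *Eng*, and *Vcam1* and *Nt5e*. Sca-1 transcripts thus had the highest mean in both groups and CD73 transcripts the lowest, and *Cd9* ranked 4 in circulating and 2 in muscle FAPs, in both overlapping with the gene that came next.

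Genes whose pattern over the 6 libraries was most like that of *Ly6a* were *Ift74* (Pearson r = 0.996), *Cyfip1* (r = 0.994) and *Scpep1* (r = 0.992), out of 4735 candidates above 20 CPM. For *Cd34* they were *Phykpl* (r = 0.978), *Fez2* (r = 0.971) and *Ttll4* (r = 0.965). These values describe 6 libraries that share scaling and depth, and the genes were picked as the highest of all candidates.

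Other surface markers of FAPs and mesenchymal cells made a list of 17 genes. edgeR called 0 of them, and DESeq2 called 4 lower, *Pdgfra*, *Pdgfrb*, *Cd44* and *Itgav*, and 1 higher, *Dpp4*. Of all genes tested DESeq2 called 5.32% lower and 1.01% higher. Of the 4736 genes above 20 CPM it called 539 lower and 16 higher. *Pdgfra*, the other antigen by which FAPs are sorted, stood at 221, 191 and 193 CPM in circulating libraries and 849, 456 and 526 CPM in muscle libraries (log2 fold change -1.60 ± 0.35; edgeR adjusted p = 0.114; DESeq2 adjusted p = 0.0260). *Cd44*, the hyaluronan receptor, had 104, 26.5 and 33.8 CPM in circulating and 322, 174 and 243 CPM in muscle libraries (log2 fold change -2.17 ± 0.57; DESeq2 adjusted p = 0.0161). *Dpp4*, which marks a progenitor-like fibroblast state, had 177, 180.5 and 69.1 CPM in circulating and 28.9, 37.0 and 23.0 CPM in muscle libraries (log2 fold change 2.26 ± 0.53; DESeq2 adjusted p = 0.00900). *Lrp1*, an endocytic receptor, stood at 251 ± 86.6 and 265 ± 17.1 CPM. The median log2 fold change over the 17 genes was -1.13, against -0.28 for the surface markers described here. The difference between the lists was not tested.

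The labelled cell type was checked on 10 genes that define fibroblasts and FAPs, such as *Gsn*, *Dcn* and *Col3a1*. Their summed level was 27753 to 29895 CPM in circulating and 61766 to 72787 CPM in muscle libraries, so both groups carried them in large amounts. edgeR called 1 of the 10, *Gsn*, lower in circulating FAPs (14589 ± 1501 against 33311 ± 3785 CPM; log2 fold change -1.19 ± 0.17; adjusted p = 0.0341), against 0.104% of all genes tested called lower. All circulating libraries lay below the muscle libraries for 9 of the 10, against 28.8% of genes above 20 CPM. An unadjusted edgeR p under 0.05 with a lower level was found for 9, against 9.64% of all genes tested. DESeq2 called 6 of them lower, against 5.32% of all genes tested and 539 of the 4736 genes above 20 CPM. The limma-voom fit called 4, against 0.454% of all genes tested in either direction. The edgeR count ranged from 0 to 7 over the alternatives: it was 7 with no filter beyond 1 read, 6 without circulating library 1 and 3 with DESeq2's size factors, without the 18S gene or without the robust fit. It was 0 with scaling on well-expressed genes or by upper quartile, with a minimum mean of 1 CPM, with the replicate block, and without any 1 of the other libraries.

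Markers of cells that share these antigens were measured in the same libraries. The 15 endothelial markers, which bear on *Ly6a*, *Cd34*, *Eng* and *Vcam1*, summed to 88.4 to 139 CPM in circulating and 126 to 170.1 CPM in muscle libraries, with 0 called by edgeR or DESeq2 and none at 0 in a whole group. The 10 leukocyte markers summed to 182, 147 and 53.9 CPM in circulating and 14.5, 14.3 and 11.9 CPM in muscle libraries. Of the 7 that were tested, edgeR called 0 and DESeq2 5 higher, against 1.01% of all genes tested called higher. All 7 had every circulating library above the muscle libraries, against 16.2% of all genes tested. The filter partly fixed that count. *Cd52* (4, 6 and 6 muscle reads) and *Fcer1g* (4, 12 and 0) could not have passed it without the circulating libraries. *Coro1a*, which was not tested, overlapped, at 2.85, 4.52 and 0.439 CPM in circulating and 0.597, 0.406 and 0.489 CPM in muscle libraries. The 12 monocyte and macrophage markers, which bear on *Ly6c1*, summed to 56.6, 245 and 91.9 CPM in circulating and 20.8 to 34.2 CPM in muscle libraries, and of the 11 tested edgeR called 0 and DESeq2 4 higher, against the same 1.01%. The leukocyte sum was highest in circulating library 1, where *Ly6c1* was also highest, and the monocyte and macrophage sum was highest in circulating library 2. The leukocyte markers were not uniform. *Laptm5* alone held 107 CPM in circulating library 1, where *Lcp1* and *Itgb2* were also highest. *Fcer1g*, at 0.730, 41.7 and 15.6 CPM in circulating libraries, and *Cd52*, *Coro1a* and *Cytip* were highest in another circulating library. The 9 satellite cell markers, of which *Vcam1* is one, summed to 109 to 151 CPM in circulating and 108 to 194 CPM in muscle libraries, and *Myod1* had no read in any muscle library. Of the 8 tested, edgeR called 0 and DESeq2 1 higher, *Chodl*, against 1.01% of all genes tested. *Chodl* had 37.9, 4.66 and 46.3 CPM in circulating and 3.88, 4.52 and 2.40 CPM in muscle libraries. Every circulating library lay above the muscle libraries for 3 of the 8, as for 16.2% of all genes tested. The part of these cells in the surface marker levels was not tested.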

How the data were processed

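RNA of 6 samples, 3 of circulating and 3 of muscle FAPs, was sequenced, and the authors deposited 1 table of raw read counts per gene for all of them. Reads were processed with Trim Galore, STAR and featureCounts on the GRCm39 build, per the submitters' processing notes; versions, annotation, strandedness and the treatment of reads that match several genes are not given in the sources used here. Per the labels' protocols, libraries were made with a TruePrep kit.

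Columns were tied to samples by their titles. Genes were kept by edgeR's filterByExpr (20248 of 33276), scaled by TMM and tested in R 4.3.3 with edgeR 4.0.16 (glmQLFit, robust, and glmQLFTest) at an adjusted p of 0.05. DESeq2 1.42.0 and limma 3.58.1 (voom) were alternatives, with other scalings, filters, the replicate block and each library left out. Log2 CPM for likeness used a prior count of 2, and ratios a pseudocount of 0.5. The fits were tested on simulated data. Replicates differed beyond counting noise. Exon lengths and Ly6 sequences came from GENCODE M21 (GRCm38), a build other than the authors', matched by symbol for all 10 genes, and no coordinates are given.

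The genes, the 22 lists (271 genes) set beside them and the tests were chosen with earlier results of these data known. From a list, the text names genes past edgeR's threshold and up to 3 of the most abundant; genes named for a DESeq2 call, a lack of overlap or their relation to a marker were chosen after their values were seen.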

Additional observations from a re-analysis of the deposited data

How the results depend on the processing

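None of the 10 surface markers passed an adjusted p of 0.05 under any of the 17 alternatives. *Cd9*, *Cd248* and *Vcam1* kept their sign in all 17, over log2 fold changes of -1.51 to -0.56, 0.26 to 1.22 and -2.05 to -0.42, with adjusted p-values of 0.0704 to 0.312, 0.0854 to 0.746 and 0.251 to 0.721 (edgeR, DESeq2 or limma). Scaling on well-expressed genes turned *Ly6a* (0.16), *Ly6e* (0.27), *Cd34* (0.49) and *Eng* (0.44) positive, as did upper quartile scaling (0.14, 0.24, 0.45 and 0.39). *Nt5e* turned negative with DESeq2's size factors in edgeR (-0.10), without the 18S gene (-0.046), with no filter beyond 1 read (-0.22) and in DESeq2 (-0.10), and *Thy1* did with no such filter (-0.036). Groups did not overlap for 2 of the 10, and for 5 with scaling on well-expressed genes. The cause of these changes was not tested.

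The number of all genes past the threshold was 22, and 43 with DESeq2's size factors in edgeR, 7 with scaling on well-expressed genes, 2 with upper quartile scaling, 160 with no filter beyond 1 read, 1282 in DESeq2 and 92 in limma-voom.

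Leaving out 1 library at a time gave log2 fold changes of -1.37 to -0.26 for *Ly6a*, -0.24 to 0.70 for *Ly6c1*, -0.77 to -0.37 for *Ly6e*, -0.42 to -0.06 for *Cd34*, -0.11 to 0.30 for *Thy1*, -0.63 to -0.23 for *Eng*, -0.46 to 0.67 for *Nt5e*, -1.47 to -1.21 for *Cd9*, 0.27 to 0.53 for *Cd248* and -2.05 to -0.69 for *Vcam1*. It gave 0 to 65 genes past the threshold, the 65 without circulating library 1 and the 0 without muscle library 3, and 2 to 4 surface markers without overlap. The log2 differences relative to *Cd34* ran from -0.30 to 0.20 for *Eng*, from -0.36 to 1.17 for *Nt5e*, from -1.31 to -0.84 for *Cd9* and from 0.49 to 0.85 for *Cd248*.

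Both groups carry replicate numbers 1 to 3. The deviations of same-numbered libraries from their group means correlated at -0.01, 0.05 and -5.8e-06, and not every library correlated best with its own number. Whether same-numbered libraries share a mouse is not in the labels. With 3 libraries a group these correlations cannot decide it. With the number as a replicate block, 1 gene passed the threshold and *Cd9* stood at -1.30 (edgeR adjusted p = 0.221).

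Precision is limited by 3 libraries a group and a common dispersion of 0.381, which set the width of the confidence intervals given.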

Other observations

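The 26 genes of GPI anchor assembly, which build the anchor of Sca-1, Ly6C, Ly6E, CD90 and CD73, included 25 that were tested. edgeR and DESeq2 called 0 of them, and edgeR had 0 at an unadjusted p under 0.05 in either direction. Of all genes tested, 9.64% were lower and 9.71% higher at that unadjusted p. Their median log2 fold change was 0.13 and their summed level 265 to 391 CPM in circulating and 312 to 418 CPM in muscle libraries. The most abundant, *Pigk* and *Pigp*, varied widely within both groups, at 61.9 ± 64.7 and 39.0 ± 65.7 CPM in circulating and 45.4 ± 35.3 and 51.6 ± 36.6 CPM in muscle FAPs.

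Markers of further cells that carry these antigens were summed in the same way. The 10 haematopoietic progenitor markers summed to 401 to 575 CPM in circulating and 448 to 528 CPM in muscle libraries, most of it *Procr*, at 473 ± 99.6 and 448 ± 27.1 CPM, a protein C receptor that stromal cells also express. Platelet and megakaryocyte markers, which bear on *Cd9*, summed to 27.9 to 44.8 and 33.8 to 39.6 CPM, and neutrophil markers to 16.9 to 120.3 and 8.12 to 12.4 CPM. T and NK cell markers, which bear on *Thy1*, summed to 11.6 to 20.4 and 7.05 to 14.0 CPM, and B cell markers to 16.1 to 23.9 and 12.997 to 17.1 CPM. The receptor gene floor, higher in circulating libraries, was not taken off such sums. Pericyte and smooth muscle markers, which bear on *Cd248*, summed to 58.3 to 85.5 and 114 to 221 CPM, and red cell markers to 130.2 to 301 and 71.9 to 372 CPM. edgeR called 0 genes of these 7 lists, and DESeq2 called *Gp9* of the platelet list and *Rgs5* of the pericyte list lower, against 5.32% of all genes tested.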
